A study of Rattus norvegicus with 16 samples.

Results

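Scd encodes a stearoyl-CoA desaturase, and it was followed here with 2 enzymes of fatty acid synthesis, Fasn and Acly, and with 4 genes typical of fat cells, Adipoq, Fabp4, Plin1 and Cfd. These 7 genes were found through the gene symbol in the array annotation, which pairs them with 9 probe sets. The array holds 31042 probe sets other than controls, and those with a single symbol name 14218 genes. Of the 7 genes, 6 passed the filter on low values, with 10416 genes passing in all; Plin1 did not pass. The 7 genes were chosen by name after Scd had stood out as higher in EOM than in TA on these same arrays, so the measured values that chose Scd were its intensities in the 2 muscles. Differences between the muscles are therefore given for the 7 genes as a description, with no test.

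Transcripts were measured in the rectus extraocular muscles (EOM), which turn the eye, and in the tibialis anterior (TA), a muscle of the lower leg, of 4 rats, whose strain and age are not given in the sources used here. Laser capture from frozen sections of 10 µm took about 1000 neuromuscular junctions per muscle, found by acetylcholinesterase staining, and a like amount of fibre away from junctions. The 4 groups, EOM_synapse, EOM_fiber, TA_synapse and TA_fiber, hold 4 arrays each, 1 per rat, and the rats are numbered 15, 25, 27 and 29. The labels name no treatment or genotype. Each array sums the RNA of everything in the captured pieces, fibres, nerve terminals, Schwann cells, vessels and connective tissue, so fewer cells of a type and less RNA per cell cannot be told apart.

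The arrays had the same 2% trimmed mean intensity, 150.1, and medians of 33.4 to 57.0. All 12 skeletal muscle fibre markers with a probe set lay above the median of their array at least once, and their summed intensity ran from 88793 to 123109 in EOM_synapse, 183441 to 254078 in EOM_fiber, 185471 to 242197 in TA_synapse and 229277 to 400858 in TA_fiber. Array intensities carry no transcript count, and the number of arrays limits the precision.

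Cells make palmitate from citrate in steps: Acly splits citrate into acetyl-CoA, Fasn builds the palmitate chain, and stearoyl-CoA desaturases put a double bond into the long chain, giving the monounsaturated fatty acids that membranes and stored triglyceride contain. Fat cells run this pathway strongly and also secrete adiponectin (Adipoq) and adipsin (Cfd), carry fatty acids on Fabp4 and coat their lipid droplet with perilipin 1 (Plin1). Muscle, in contrast, mostly burns fatty acids and keeps small droplets coated by other perilipins. A sample of muscle can hold RNA from fat cells that lie between the fibres, and the question put to these arrays was whether Scd ran with the fat cell genes.

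Rats have several stearoyl-CoA desaturase genes, and Scd and its neighbour Scd2 lie on chromosome 1. In RefSeq (GRCr8) the Scd2 record spans 253118377 to 253131436 and the Scd record 253218968 to 253232101, with 87531 bases between them. The 250 bases before the tabulated start of each gene are shown because both genes were higher in EOM than in TA, as given below. They are printed 5′ to 3′ on the strand of the gene, with the CCAAT box in capitals.
Scd2, chr1:253118127-253118376, plus strand: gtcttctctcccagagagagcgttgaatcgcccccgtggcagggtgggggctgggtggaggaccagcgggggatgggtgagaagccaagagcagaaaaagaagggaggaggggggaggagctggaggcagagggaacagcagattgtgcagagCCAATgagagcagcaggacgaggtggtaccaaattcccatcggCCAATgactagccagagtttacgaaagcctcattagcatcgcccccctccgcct
Scd, chr1:253231732-253231981, minus strand: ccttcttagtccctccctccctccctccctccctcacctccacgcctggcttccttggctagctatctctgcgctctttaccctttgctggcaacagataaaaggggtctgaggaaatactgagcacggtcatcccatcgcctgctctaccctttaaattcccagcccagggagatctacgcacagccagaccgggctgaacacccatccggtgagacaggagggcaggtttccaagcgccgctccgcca
The Scd2 window holds CCAAT at 97 to 93 and at 54 to 50 bases before the start, and the Scd window holds none, where 34% of 33469 rat promoter windows of this length hold it on either strand. The record of Scd reaches 370 bases further upstream than the tabulated start, so the window printed for Scd lies inside the gene record and may not be the promoter in use. Of 8 motifs searched on both strands, the other 7 had no match in either window: TCACNCCAC (the core of a sterol regulatory element, in 0.974% of windows), CACGTG (5.59%), TATAAA (12.9%), a pair of AGGTCA copies with N between them (0.0508%), TGACCT, which overlaps that pair read on the other strand (14.1%), GGGCGG (30.5%) and CANNTG, which overlaps CACGTG (65.5%). A match describes letters only. The table also held Acly, Adipoq, Plin1 and Cfd, so 5 of the 7 genes matched; Fasn and Fabp4 are named only.

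Scd itself was bright in every EOM array and dim in nearly every TA array. Its probe set, 1370355_at, had deposited intensities of 563, 814, 602 and 679.6 in EOM_synapse (rats 15, 25, 27 and 29), against 0.866, 18.9, 86.5 and 1.81 in TA_synapse. Away from junctions it had 399, 610.2, 869 and 1621 in EOM_fiber, against 22.5, 3.53, 13.1 and 4.81 in TA_fiber. The lowest EOM array was thus well above the highest TA array, and the groups of the muscles did not overlap. Of the 10416 genes, 8.39% had every EOM_fiber array above every TA_fiber array and 7.98% the opposite. Between EOM_synapse and TA_synapse these shares were 11% and 11.8%. Scd lay above the median of its array on 9 arrays, all 8 of EOM and the TA_synapse array of rat 27.

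On the quantile-normalized log2(intensity + 16) scale, Scd averaged 9.38 ± 0.27 in EOM_synapse, 9.63 ± 0.83 in EOM_fiber, 5.02 ± 1.16 in TA_synapse and 4.75 ± 0.48 in TA_fiber (mean ± SD, n = 4 each). EOM_fiber minus TA_fiber was 4.88 ± 0.48, and EOM_synapse minus TA_synapse was 4.36 ± 0.48 (log2 difference ± SE). These are the values that brought Scd into view. In order from high to low the groups ran EOM_fiber, EOM_synapse, TA_synapse, TA_fiber, and within each muscle the pair of neighbours did not differ beyond its spread. Adding 16 before taking logs compresses the differences of dim values: with 1 added they were 6.24 in fibre and 5.99 at the junction, and with 64 added 3.49 and 3.07.

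**Figure D1:**
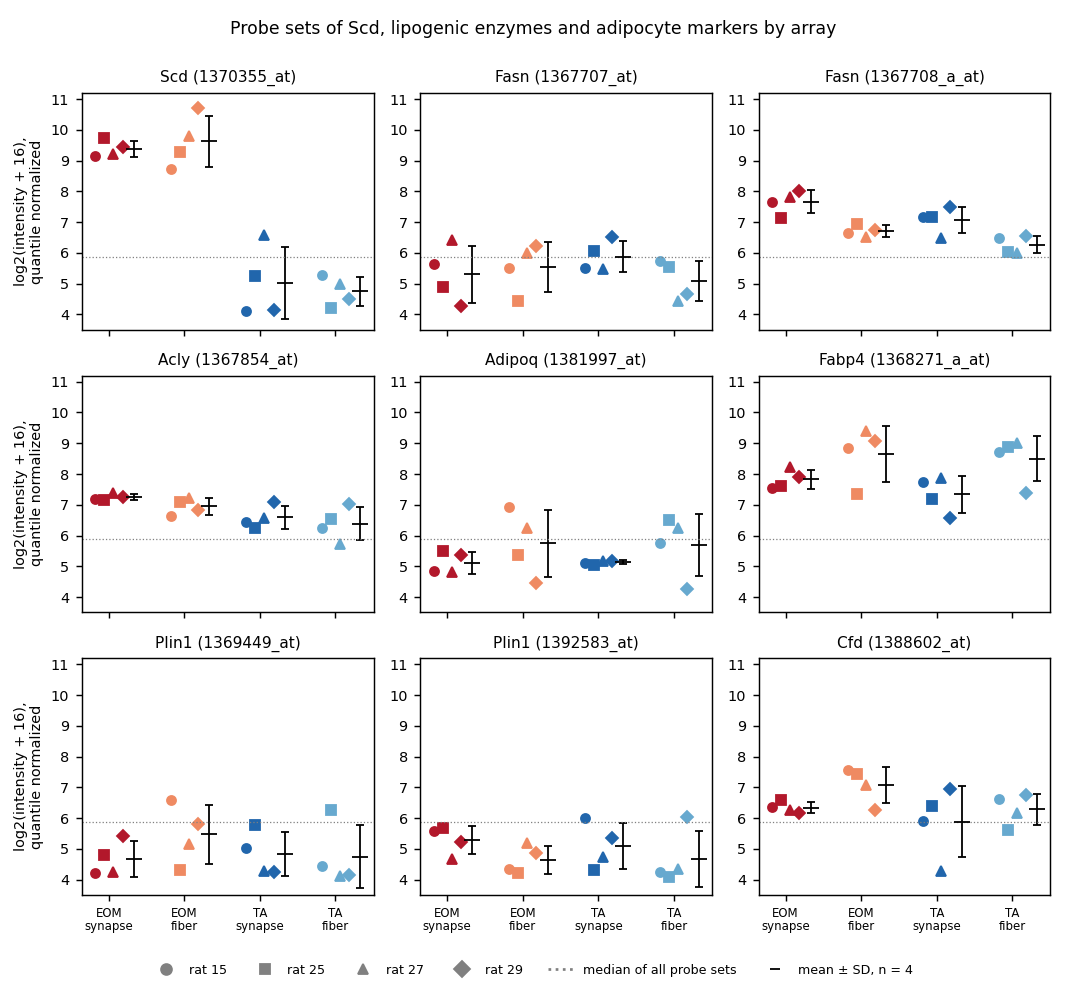
Each panel plots 1 probe set of the 7 genes, with the quantile-normalized log2(intensity + 16) on the y axis and the 4 groups on the x axis; points are arrays, with 1 symbol per rat, bars are mean ± SD (n = 4), and the dotted line is the median of all probe sets, 5.88. Scd separates EOM (8.74 to 10.70) from TA (4.11 to 6.57), while the panels of Adipoq, Fabp4 and Plin1 show the muscles overlapping.

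The enzymes upstream of the desaturase showed much smaller differences between the muscles. Acly, the citrate-splitting enzyme, had intensities of 141, 135, 164 and 149 in EOM_synapse, against 66.2, 53.1, 86.6 and 120.1 in TA_synapse. All 4 EOM_synapse arrays were above all 4 TA_synapse arrays, a pattern that 11% of the 10416 genes showed at the junction, while 11.8% showed the opposite. In fibre Acly had 96.3, 127, 135 and 98.8 in EOM_fiber, against 57.0, 81.6, 33.7 and 101 in TA_fiber, and the groups overlapped. The log2 differences of Acly were 0.66 ± 0.25 at the junction and 0.56 ± 0.25 in fibre.

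Fasn, the fatty acid synthase, has 2 probe sets that gave different pictures. The brighter, 1367708_a_at, had intensities of 202, 136, 226 and 261 in EOM_synapse, against 127, 124, 81.8 and 167 in TA_synapse. In fibre it had 97.6, 112, 76.5 and 92.6 in EOM_fiber, against 68.1, 58.4, 43.2 and 64.7 in TA_fiber. On the normalized scale its groups overlapped in each comparison of the muscles, with log2 differences of 0.59 ± 0.22 at the junction and 0.44 ± 0.22 in fibre. The dimmer probe set, 1367707_at, was above the array median on 5 of 16 arrays and differed by -0.58 at the junction and 0.45 in fibre.

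The fat cell genes did not separate the muscles. Adipoq, which encodes the hormone adiponectin and is among the most fat-cell-specific of the 7, had intensities of 119, 22.5, 60.7 and 6.41 in EOM_fiber, against 36.4, 80.4, 51.8 and 2.52 in TA_fiber. At the junction it had 14.7, 30.2, 11.1 and 27.0 in EOM_synapse, against 16.7, 15.1, 23.6 and 20.1 in TA_synapse. It was above the array median on 4 arrays only, 2 of EOM_fiber and 2 of TA_fiber, and the muscles overlapped: the log2 differences were 0.05 ± 0.45 in fibre and -0.01 ± 0.45 at the junction.

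Fabp4, the fatty acid carrier of fat cells and also of capillary endothelium, lay above the array median on all 16 arrays. It had intensities of 427, 155, 659 and 515 in EOM_fiber, against 400.2, 433, 495 and 139 in TA_fiber, and 184, 193, 307 and 243 in EOM_synapse, against 203, 124, 208 and 76.4 in TA_synapse. The log2 differences were 0.16 ± 0.38 in fibre and 0.49 ± 0.38 at the junction, and the groups overlapped in each. Cfd, the serine protease adipsin, had 178, 168, 119 and 65.2 in EOM_fiber, against 76.3, 39.9, 49.3 and 76.9 in TA_fiber. At the junction it had 68.3, 86.5, 57.9 and 57.4 in EOM_synapse, against 38.7, 61.1, 4.20 and 107 in TA_synapse. Its log2 differences were 0.80 ± 0.44 in fibre and 0.46 ± 0.44 at the junction, again with overlap.

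Plin1, the coat protein of the fat cell droplet, was near the bottom of the scale. Each of its 2 probe sets was above the array median on 2 arrays. Probe set 1369449_at had 95.4, 3.62, 21.6 and 45.1 in EOM_fiber, against 5.67, 68.2, 1.43 and 1.39 in TA_fiber. Probe set 1392583_at had 6.33, 2.12, 22.5 and 14.6 in EOM_fiber, against 3.08, 1.76, 3.79 and 39.4 in TA_fiber, and the brightest array differed between the probe sets. At the junction 1369449_at had 2.53, 13.1, 1.93 and 28.9 in EOM_synapse, against 15, 33, 4.26 and 2.81 in TA_synapse. There 1392583_at had 31.0, 37.1, 9.37 and 23.6 in EOM_synapse, against 43.4, 3.08, 10.5 and 25.2 in TA_synapse. The muscles overlapped on each probe set and in each comparison. Where Plin1 is averaged, summed or correlated with other genes below, it is read from 1392583_at alone.

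Within EOM_fiber, arrays rich in fat cell transcripts were found at both low and high Scd. The EOM_fiber array of rat 27 had the highest mean log2 level of the 4 fat cell genes (6.97) and the highest Fabp4 (659) of all 16 arrays, and its Scd (869) was the second highest. The EOM_fiber array of rat 15, next in that mean (6.92), had the highest Adipoq (119), the highest 1369449_at signal of Plin1 (95.4) and the highest Cfd (178) of all 16 arrays, and the lowest Scd of its group (399). The mean reads Plin1 from 1392583_at, on which the brightest EOM_fiber array had 22.5. The order of rats 27 and 15 in the mean may therefore depend on the probe set, and a mean with 1369449_at was not computed. The TA_fiber array of rat 25 had the next highest Adipoq (80.4) and Plin1 (68.2), and the lowest Scd of its group (3.53). The EOM_fiber array of rat 29 had the highest Scd of all (1621), with a mean of the 4 fat cell genes of 6.16. Its Adipoq (6.41) and its Cfd were the lowest of its group. Its Fabp4 was the second highest of all 16 arrays, and each Plin1 probe set was the second highest of its group. The EOM_fiber array of rat 15 and the TA_fiber array of rat 25 were left out together, chosen by their Adipoq after seeing the data. Without them the EOM_fiber minus TA_fiber difference of Scd was 4.91 ± 0.59 (log2 ± SE). Each held the lowest Scd of its group, so leaving them out raised the mean of each group. In the mean of the 4 fat cell genes, the TA_fiber array of rat 25 (6.27) was below that of rat 27 (6.44). This difference therefore cannot tell whether fat cell RNA carries part of the gap in Scd.

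Over the 8 EOM arrays, Scd and the mean log2 level of Adipoq, Fabp4, Plin1 and Cfd had a Pearson r of -0.12 and a Spearman rho of 0.31, and r became 0.85 when the 2 arrays farthest from the median were left out. Over the 8 TA arrays r was -0.61 and rho -0.19, and r was -0.05 without the TA_synapse array of rat 27. With group means taken out, r over all 16 arrays was -0.47. These values describe 4 rats that share RNA preparation and normalization; 27 such correlations were computed, and the values for EOM and TA each depend on 1 or 2 arrays.

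**Figure D2:**
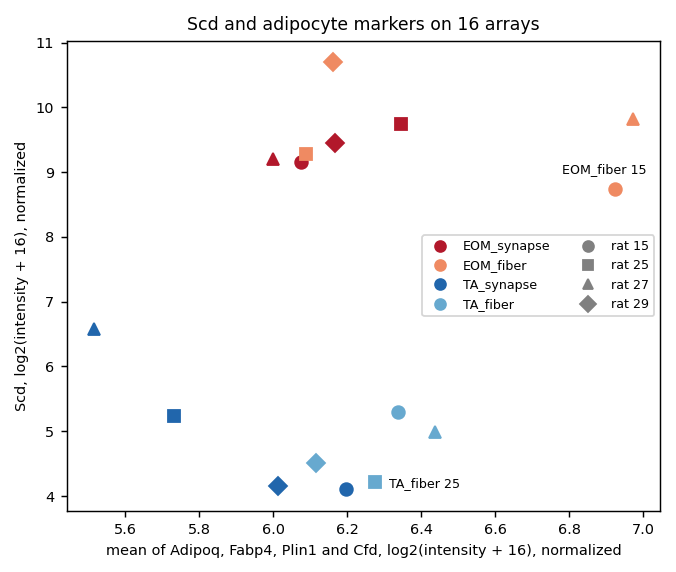
Each point is 1 of the 16 arrays, with the mean log2(intensity + 16) of Adipoq, Fabp4, Plin1 and Cfd on the x axis and that of Scd on the y axis, coloured by group and shaped by rat. Plin1 is read from 1392583_at. EOM arrays (Scd 8.74 to 10.70) and TA arrays (4.11 to 6.57) cover overlapping ranges of the fat cell mean, and the 2 labelled arrays have the highest Adipoq.

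Of 20 fat cell markers listed, 19 had a named probe set; Retn, the resistin gene, had none. Lep, Cidec, Ucp1, Acvr1c, Trarg1 and Rbp4 were above the array median on none of the 16 arrays. Lep, the leptin gene, had at most 7.14 in EOM_fiber, against at most 25.9 in TA_fiber. The summed intensity of Adipoq, Plin1, Cidec and Lep ran from 27.6 to 172 in EOM_fiber and from 45.1 to 90.0 in TA_fiber, and from 22.0 to 70.1 in EOM_synapse and from 52.3 to 81.1 in TA_synapse. These ranges overlapped in each pair. Summed over all 19 markers the intensity was 7325 to 9286 in EOM_fiber, against 5713 to 8724 in TA_fiber, which overlapped, and 3802 to 6335 in EOM_synapse, against 2639 to 3364 in TA_synapse, which did not. Of the sum at junctions, Lpl alone, a gene that muscle also expresses, had 3966, 5095, 4209 and 2514 in EOM_synapse, against 1368, 1175, 1815 and 996 in TA_synapse.

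Leaving the 4 fat cell members aside, 8 other fat cell markers passed the filter. In fibre, 2 were higher and 1 lower in EOM_fiber than in TA_fiber, with a median log2 difference of 0.04. Of all genes 15.6% passed the threshold, 8.4% higher and 7.15% lower, with a median of 0.03 (limma with Benjamini-Hochberg adjustment over 10416 genes, adjusted p under 0.05). At the junction 2 were higher and 1 lower in EOM_synapse than in TA_synapse, with a median of -0.02, where 16.4% of all genes passed, 7.82% higher and 8.61% lower, with a median of 0.01. Without the 2 arrays highest in Adipoq, a choice made after seeing the data, 1 of these markers was higher in fibre and the 1 lower marker no longer passed.

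Cidea, which encodes a lipid droplet protein known from brown fat, had the largest difference of that list. It had intensities of 503, 307, 315 and 225 in EOM_fiber, against 43.1, 11.1, 14.3 and 21.0 in TA_fiber, and 290.1, 276, 317 and 258 in EOM_synapse, against 31.9, 39.1, 3.94 and 27.7 in TA_synapse. Every EOM array was above every TA array. In fibre alone, 8.39% of all genes had every EOM_fiber array above every TA_fiber array, and 7.98% showed the opposite. Between the junctions alone these shares were 11% and 11.8%, and the share over both was not computed. The log2 differences were 3.13 ± 0.31 in fibre (limma adjusted p = 2.44e-05) and 2.80 ± 0.31 at the junction (adjusted p = 4.11e-05), the same way in all 4 rats, and no alternative setting ended either call. Ucp1, the uncoupling protein that defines brown fat cells, was above the array median on no array.

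Lpl, the lipase that frees fatty acids from circulating lipoproteins and that muscle also makes, was higher at EOM junctions than at TA junctions by 1.80 ± 0.23 (limma adjusted p = 0.000143). In fibre its difference was 0.65 ± 0.23 (adjusted p = 0.075), which passed without the EOM_fiber array of rat 15. Plin4, a droplet coat protein that muscle fibres also carry, was the lower marker, by -1.50 ± 0.22 at the junction (adjusted p = 0.000405). Pparg, the master regulator of fat cells, differed by 0.13 ± 0.50 in fibre (adjusted p = 0.89) and -0.58 ± 0.50 at the junction (adjusted p = 0.475), and Lipe, hormone-sensitive lipase, by -0.05 ± 0.24 (adjusted p = 0.926) and -0.10 ± 0.24 (adjusted p = 0.832). The fibre differences of Pparg and Lipe changed sign among the fits that left out arrays.

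Scd2, another stearoyl-CoA desaturase, was higher in EOM as well. Its brightest probe set, 1367668_a_at, had 448, 293, 952 and 625 in EOM_fiber, against 103, 88.0, 449.9 and 144 in TA_fiber, and 2149.7, 2026, 4344 and 3431 in EOM_synapse, against 509, 765, 996 and 449 in TA_synapse. The TA_fiber array of rat 27 reached into the EOM_fiber range, while the junction groups did not overlap. Of the 10416 genes, 11% had every EOM_synapse array above every TA_synapse array and 11.8% the opposite. Scd2 was higher by 1.60 ± 0.28 in fibre (limma adjusted p = 0.00171) and by 2.33 ± 0.28 at the junction (adjusted p = 8.85e-05), in 4 of 4 rats each. Of its other 3 probe sets, which were dim, 1388253_at averaged 6.36 ± 0.34 in EOM_synapse and 6.44 ± 0.52 in TA_synapse (log2, n = 4 each), so the probe sets did not agree at the junction.

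**Figure D3:**
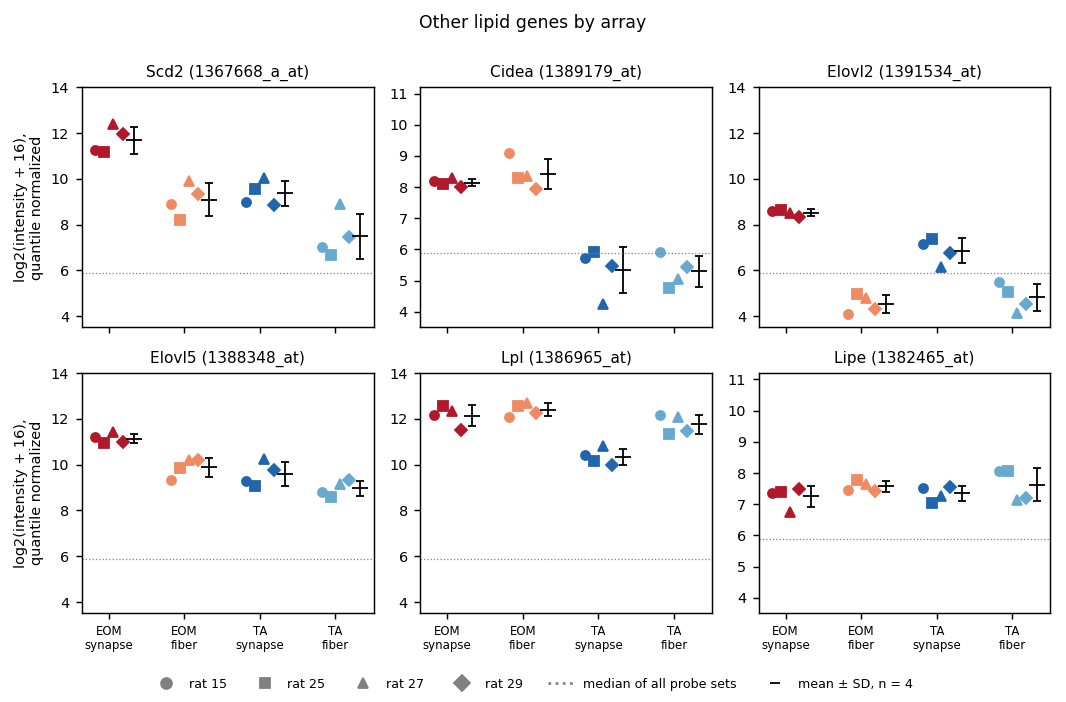
Each panel plots the quantile-normalized log2(intensity + 16) of 1 gene, Scd2, Cidea, Elovl2, Elovl5, Lpl and Lipe, on the y axis for the 4 groups on the x axis; points are arrays, with 1 symbol per rat, and bars are mean ± SD (n = 4). Cidea separates the muscles as Scd does, Elovl2 is near the bottom of the scale in fibre of both muscles and high at junctions, and Lipe is at about the same level in the 4 groups.

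The other lipogenesis enzymes were mixed in direction, while the other desaturases and elongases that passed were all higher in EOM. Of 10 other lipogenesis enzymes that passed the filter, 2 were higher and 2 lower in EOM_fiber than in TA_fiber, with a median of 0.00. Of all genes, 8.4% were higher and 7.15% lower there, with a median of 0.03. Of the same 10 enzymes, 3 were higher and 1 lower at EOM than at TA junctions, with a median of 0.57. There 7.82% of all genes were higher and 8.61% lower, with a median of 0.01. Elovl5, which lengthens polyunsaturated chains, was higher by 0.92 ± 0.21 in fibre (limma adjusted p = 0.00908) and by 1.55 ± 0.21 at the junction (adjusted p = 0.00022). Me1, malic enzyme, a source of the NADPH that fatty acid synthesis uses, was lower by -1.04 ± 0.23 in fibre (adjusted p = 0.00712) and by -1.62 ± 0.23 at the junction (adjusted p = 0.000294). Of 10 other desaturases and elongases tested, 3 were higher in fibre and 4 at the junction, Scd2 and Elovl5 among them in both, and the others did not pass. The medians were 0.42 and 0.62. Scd2 and Elovl5 are also among the lipogenesis enzymes counted above, so the counts of the lists are not separate.

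The regulators of the pathway were lower in EOM where they passed the test. Of 14 tested, 4 were lower in fibre, where 7.15% of all genes were, and 2 at the junction, where 8.61% of all genes were; the others did not pass. The fibre count ran from 1 to 5 over the alternatives. Insig1, which holds the SREBP proteins in the endoplasmic reticulum, was lower by -1.34 ± 0.29 in fibre (limma adjusted p = 0.00625) and by -1.26 ± 0.29 at the junction (adjusted p = 0.00833). Prkaa2, a catalytic subunit of the kinase AMPK, was lower by -0.83 ± 0.18 (adjusted p = 0.0078) and -1.04 ± 0.18 (adjusted p = 0.0017), and the transcription factor Cebpb was lower in fibre by -1.66 ± 0.31 (adjusted p = 0.00252). Nr1h3, the liver X receptor alpha, was lower in fibre by -1.70 ± 0.36 (limma adjusted p = 0.00605), a call lost without rat 15 or 29. Srebf1, the SREBP gene most tied to lipogenesis, did not pass, at -0.43 ± 0.24 in fibre (adjusted p = 0.249) and -0.34 ± 0.24 at the junction (adjusted p = 0.373), nor did Mlxipl, the glucose-responsive ChREBP, at 0.25 ± 0.33 (adjusted p = 0.663) and 0.53 ± 0.33 (adjusted p = 0.31).

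Among 12 cholesterol synthesis genes tested, 1 was lower in each comparison of the muscles and the others did not pass. For this list and the next 2, the shares of all genes were 8.4% higher and 7.15% lower in EOM_fiber. At EOM junctions they were 7.82% higher and 8.61% lower. Among 15 genes of triglyceride and lipid droplets, 1 was higher and 3 lower in EOM_fiber, and 2 were higher and 3 lower at EOM junctions. Plin4, already counted with the fat cell markers, was among the lower ones in both. Plin3, a droplet coat protein found in most cells, was higher at EOM junctions by 1.43 ± 0.25 (limma adjusted p = 0.0016), and Lpin1, a phosphatidate phosphatase, was lower there by -1.06 ± 0.21 (adjusted p = 0.00395). In fibre G0s2, an inhibitor of the main triglyceride lipase, was lower in EOM by -1.32 ± 0.25 (adjusted p = 0.00332). Of 12 fatty acid uptake and binding genes other than Fabp4, 1 was higher and 1 lower in fibre and 4 were higher at the junction. Among these 4 were the acyl-CoA synthetase Acsl3, by 1.60 ± 0.22 (adjusted p = 0.000223), and the fatty acid transporter Slc27a1, by 1.32 ± 0.22 (adjusted p = 0.000964). Lpl, already counted with the fat cell markers, was also 1 of the 4. Without the 2 arrays highest in Adipoq, 3 regulators were lower in fibre and 4 at the junction, 1 triglyceride and droplet gene was lower in fibre, and the fatty acid uptake genes no longer passed in fibre.

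**Figure D4:**
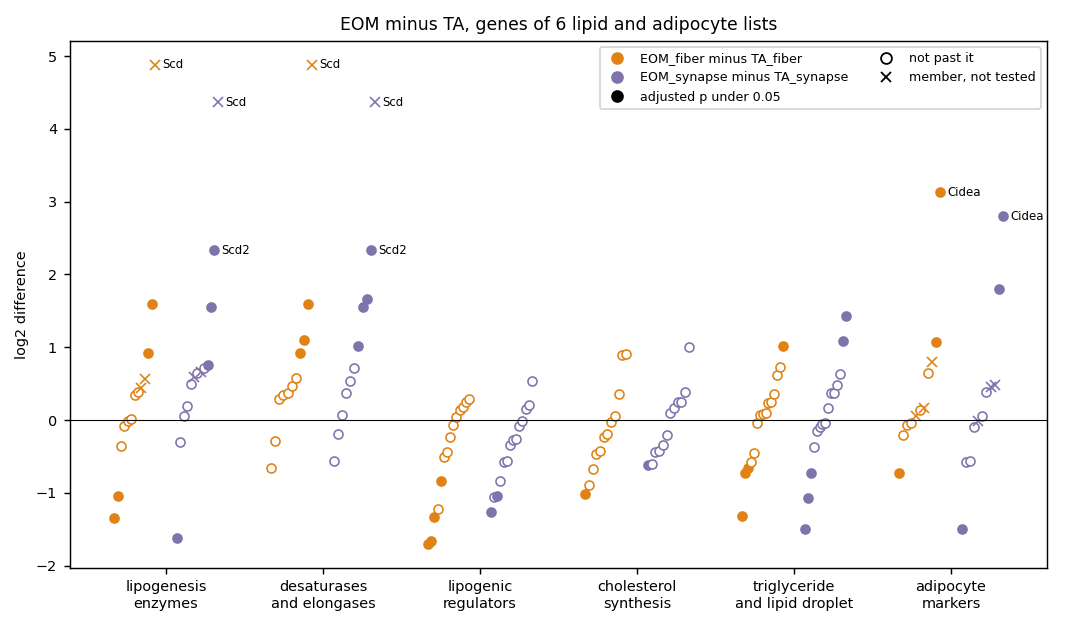
Each point is the log2 difference (y axis) of 1 gene from 6 gene lists (x axis), EOM_fiber minus TA_fiber in orange and EOM_synapse minus TA_synapse in purple; filled points passed adjusted p 0.05, open points did not, and crosses are the 7 chosen genes, which were not tested. Scd stands at 4.88 and 4.36, with Cidea (3.13 and 2.80) and Scd2 (1.60 and 2.33) the next furthest above 0.

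The junction against fibre comparisons did not serve to choose Scd, so the 6 genes that passed the filter were tested there. Scd did not pass in either muscle: EOM_synapse minus EOM_fiber was -0.25 ± 0.48 (limma adjusted p = 0.794) and TA_synapse minus TA_fiber was 0.27 ± 0.48 (adjusted p = 0.801), with 2 of 4 rats in each direction. In EOM 10.1% of all genes passed the threshold, 5.62% higher and 4.51% lower, and in TA 10.2%, 6.7% higher and 3.53% lower. The sign of the Scd difference turned in EOM without the EOM_fiber array of rat 29 or the EOM_synapse array of rat 27, and in TA without the TA_synapse array of rat 27. The difference between the muscles in this contrast was -0.52 ± 0.68 (adjusted p = 0.848), and 0.922% of all genes passed that test, 0.259% with a larger value in EOM and 0.662% with a smaller one.

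Fasn was the 1 of 6 tested genes that passed, where 10.1% of all genes passed in EOM and 10.2% in TA. Its brighter probe set was higher at junctions in EOM by 0.95 ± 0.22 (limma adjusted p = 0.0144) and in TA by 0.80 ± 0.22 (adjusted p = 0.0329), in 4 of 4 rats each. The dimmer probe set differed by -0.24 in EOM and 0.79 in TA, and with the mean of the 2 probe sets neither call remained (adjusted p = 0.515 in EOM and 0.117 in TA). The EOM call was lost without the EOM_synapse array of rat 27 or of rat 29. The TA call was lost without any 1 of 7 TA arrays (rats 15, 25, 27 and 29 of TA_fiber, rats 15, 25 and 29 of TA_synapse) and without the rat as a block (adjusted p = 0.0512). With a whole rat left out, the EOM call was lost for rat 15, 27 or 29 (limma adjusted p = 0.0804 to 0.115). The TA call was lost for each of the 4 rats (limma adjusted p = 0.0604 to 0.15). Acly differed by 0.30 ± 0.25 in EOM (adjusted p = 0.50) and 0.20 ± 0.25 in TA (adjusted p = 0.70).

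Adipoq, Fabp4 and Cfd had lower means at junctions than in fibre, and these differences did not pass the threshold. Fabp4 differed by -0.84 ± 0.38 in EOM (limma adjusted p = 0.189) and by -1.17 ± 0.38 in TA (adjusted p = 0.0714), Adipoq by -0.62 ± 0.45 (adjusted p = 0.428) and -0.56 ± 0.45 (adjusted p = 0.51), and Cfd by -0.74 ± 0.44 (adjusted p = 0.327) and -0.40 ± 0.44 (adjusted p = 0.651). The Fabp4 difference passed in EOM without the EOM_fiber array of rat 25 (adjusted p = 0.0319), and in TA without the EOM_fiber array of rat 25 or of rat 29 or the TA_fiber array of rat 29 (adjusted p = 0.0241 to 0.0485). Plin1, which was not tested, went both ways: 1369449_at differed by -0.80 in EOM and 0.08 in TA, and 1392583_at by 0.64 in EOM and 0.42 in TA. For the difference between the muscles, adjusted p of the 6 tested genes lay between 0.848 and 0.989.

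Scd2 was higher at junctions in each muscle, by 2.60 ± 0.28 in EOM (limma adjusted p = 6.47e-05) and 1.87 ± 0.28 in TA (adjusted p = 0.000622). Elovl2, which lengthens very long polyunsaturated chains, had 382, 396, 377 and 317 in EOM_synapse, against 1.97, 14.5, 12.9 and 4.18 in EOM_fiber, and 126, 147, 64.4 and 91.6 in TA_synapse, against 28.5, 18.5, 1.60 and 5.16 in TA_fiber. It was above the array median on all 8 junction arrays and on no fibre array. Its differences were 3.99 ± 0.27 in EOM (adjusted p = 1.02e-06) and 2.05 ± 0.27 in TA (adjusted p = 0.00026), and it was higher at EOM than at TA junctions by 1.66 ± 0.27 (adjusted p = 0.00106), a call that ended when 1 in place of 16 was added before taking logs. Since its fibre values are dim, the sizes follow the constant: with 1 added the junction differences were 5.74 in EOM and 3.26 in TA, and with 64 added 2.54 and 1.10.

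Of the 10 other lipogenesis enzymes, 5 were higher at EOM junctions than in EOM fibre and the others did not pass, and 1 was higher and 1 lower in TA. Of all genes, 5.62% were higher and 4.51% lower at the junction in EOM, and 6.7% and 3.53% in TA. Slc25a1, the mitochondrial citrate carrier, was higher in EOM by 1.23 ± 0.22 (limma adjusted p = 0.00304), and Elovl5 by 1.24 ± 0.21 (adjusted p = 0.00199). Of 15 triglyceride and lipid droplet genes, 6 were lower at the junction in EOM and 7 in TA, and the others did not pass; the medians were -0.52 and -0.77, against -0.04 and -0.01 over all genes. Without the 2 arrays highest in Adipoq, 4 were lower in EOM and 8 in TA. With all arrays, those lower in EOM included the triglyceride synthase Dgat2 (-1.73 ± 0.27, adjusted p = 0.00114), Plin4 (-1.73 ± 0.22, adjusted p = 0.000232) and Lpin1 (-1.53 ± 0.21, adjusted p = 0.000521). Those lower in TA included Plin5, the droplet coat protein of oxidative muscle (-2.01 ± 0.32, adjusted p = 0.00105), and G0s2 (-1.62 ± 0.25, adjusted p = 0.000907), and Lpl was lower there by -1.42 ± 0.23 (adjusted p = 0.00123).

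**Figure D5:**
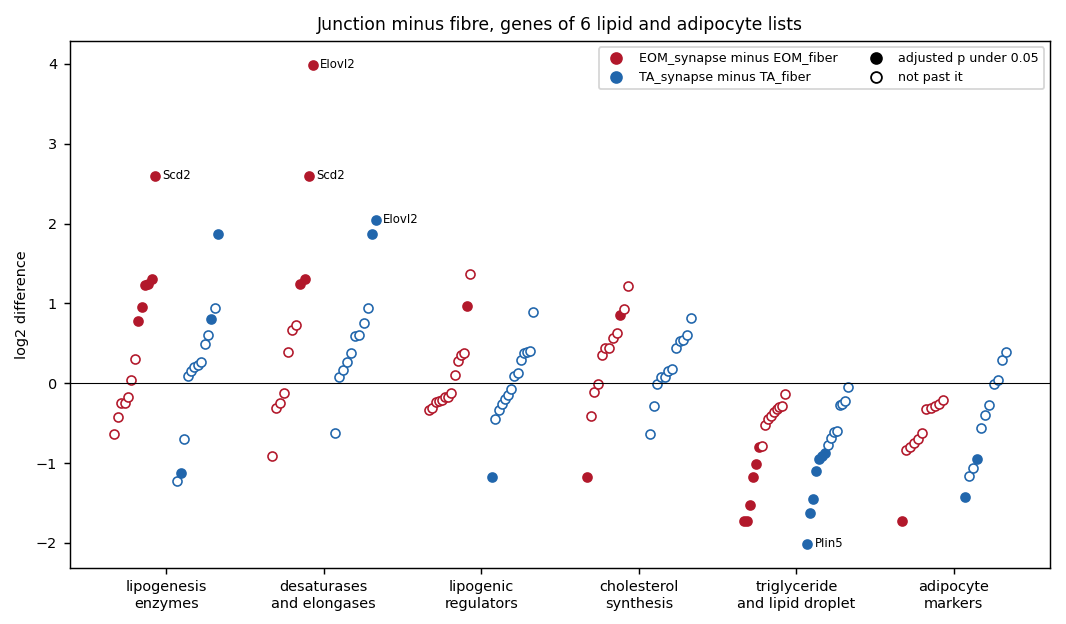
Each point is the log2 difference (y axis) of 1 gene from 6 gene lists (x axis), EOM_synapse minus EOM_fiber in red and TA_synapse minus TA_fiber in blue; filled points passed adjusted p 0.05 and open points did not. Elovl2 (3.99 and 2.05) and Scd2 (2.60 and 1.87) lie highest, and the filled points of the triglyceride and lipid droplet list are all below 0.

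Markers of other cells moved with these comparisons, and their part in the results was not tested. Summed intensities cover all genes of a list with a probe set. For comparison, 8.4% of all genes were higher in EOM_fiber than in TA_fiber. Between the junctions 7.82% of all genes were higher in EOM and 8.61% lower. In fibre, 9 of 10 tested fibroblast and progenitor markers were higher in EOM_fiber than in TA_fiber (summed intensity 7402 to 25248, against 2209 to 7491), as were 5 of 9 macrophage markers (1489 to 2724, against 602 to 879), 3 of 14 endothelial markers (4108 to 5569, against 2774 to 3449) and 3 of 9 Schwann cell markers (1857 to 2815, against 560.1 to 819). At the junction 3 of 10 fibroblast, 1 of 14 endothelial and 3 of 9 Schwann cell markers were higher in EOM_synapse than in TA_synapse. The endothelial gene Plvap was lower there, by -2.44 ± 0.37 (limma adjusted p = 0.000596), as were 5 of 12 muscle fibre markers, and the macrophage markers did not pass. The log2 difference of Scd was 4.88 in fibre and 4.36 at the junction. Of 10 markers of lipid-secreting glands and epithelium with a probe set, 3 passed the filter, and 1 of them, the cadherin Cdh1, was higher in EOM_synapse than in TA_synapse. Their summed intensity was 102 to 345 in EOM_fiber, against 106 to 263 in TA_fiber, and 337 to 552 in EOM_synapse, against 215 to 355 in TA_synapse. The keratin Krt14 was above the array median on no array.

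Between junction and fibre, 7 of 9 Schwann cell markers were higher at the junction in each muscle, and their summed intensity was 7534 to 12741 in EOM_synapse, against 1857 to 2815 in EOM_fiber, and 3559 to 5795 in TA_synapse, against 560.1 to 819 in TA_fiber. Endothelial markers were mostly lower where they passed, 6 of 14 in EOM and 5 of 14 in TA with 1 higher in each, and 4 of 10 fibroblast markers were higher and 1 lower in EOM, and 6 of 10 were higher in TA. The shares of all genes were 5.62% higher and 4.51% lower at the junction in EOM, and 6.7% and 3.53% in TA. Of 12 muscle fibre markers, 4 were lower at the junction in EOM and 2 in TA. These markers moved with the rise of Fasn, Scd2 and Elovl2 and with the fall of the droplet genes at junctions, and their part in them was not tested.

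Over the 16 arrays, the genes whose log2 level followed that of Scd most closely were Tmem47, a membrane protein (r = 0.971), Twsg1, a modulator of BMP signalling (0.966), Frzb, a secreted Wnt antagonist (0.963), Atp1b1, a sodium pump subunit (0.959), and Cdkn1a, a cell cycle inhibitor (0.956). Tmem47 averaged 10.91 ± 0.16 in EOM_synapse, 10.91 ± 0.45 in EOM_fiber, 9.02 ± 0.36 in TA_synapse and 8.65 ± 0.36 in TA_fiber, a smaller gap than that of Scd. Among 10415 genes ranked by r to Scd, Cidea was at place 67 (r = 0.877), Scd2 at 861, Acly at 977, Fasn at 2507, Cfd at 3170, Fabp4 at 3183 and Adipoq at 5617 (r = -0.05). These correlations mostly restate the gap between the muscles. With group means and rat means taken out, the closest genes were She (0.921), Higd2a (0.898), Prpf39 (0.891), Rfc1 (0.842) and Gna15 (0.841), and no gene of the lipid lists was among them.

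The genes closest to the mean of Adipoq, Fabp4, Plin1 and Cfd were Csnk2b (r = 0.843), LOC102552020 (0.809), Cdc5l (0.801), Churc1 (0.797) and Ulk1 (0.794), and no listed fat cell gene was among these 5.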

How the data were processed

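The deposited table holds 1 intensity per probe set and Affymetrix rat array, on a linear scale. Every array in it has the same 2% trimmed mean; the software with which the authors summarised probe sets is not given in these sources. Per the labels' protocols, captured RNA went through a first linear amplification, and 600 ng of its product per sample entered the next amplification and biotin labelling.

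For this report 16 was added to each intensity before log2, and the 16 arrays were quantile normalized without the 57 control probe sets. Probe sets that exceeded the array median on fewer than 4 arrays were dropped, and each gene was then read from its brightest probe set. The platform annotation gives 20832 of 31099 probe sets a single symbol and 436 several, and it does not list 9780. Detection calls were not used. The model (limma 3.58.1, R 4.3.3) had a mean for each of the 4 groups and a term for each rat, 9 residual and 4.58 prior degrees of freedom; p-values were adjusted by Benjamini-Hochberg within each contrast, over 10416 genes. The steps were first tested on simulated data. Array numbers in the titles were taken for the 4 rats of the design, which is where the pairing comes from; same-rat deviations from group means had an average correlation of 0.112 in 24 pairs (range -0.0666 to 0.245, above 0.1 in 16), over genes, which are not independent. The p-values rest on the spread left in these 4 rats after group and rat terms are taken out. It is pooled over the 4 groups and drawn toward that of all genes.

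The genes, gene lists and alternatives were chosen with earlier results of these data known. Named were the 7 genes, at most 4 per list and contrast by size among those past the threshold, a fixed set of fat cell and regulator genes, and the 5 genes most like Scd or the fat cell mean; the clearest of them are printed. Promoter sequences come from RefSeq (GRCr8).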

Additional observations from a re-analysis of the deposited data

Results flagged for a closer look

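Among 45 genes (the tested members and the named genes of the lipid and fat cell lists), 180 groups of 4 arrays were searched for an array far from the other 3, by Dixon's test at the 95% level. It marked 6, fewer than the 1 in 20 that chance gives. The scope was set after a wider search, over the named genes of all lists, had marked 11 of 320 groups. On the log2(intensity + 16) scale, Fabp4 was 7.40 in the TA_fiber array of rat 29, low against 8.73 or more in the other rats, which is 1 of 3 arrays whose removal brought the TA difference of Fabp4 between junction and fibre past the threshold; the others are EOM_fiber of rats 25 and 29. Mlxipl was 5.45 in the EOM_synapse array of rat 29, the lowest of its group. Nr1h3, the liver X receptor alpha, was 6.48 in the EOM_fiber array of rat 25, high against at most 5.19. Cyp51, an enzyme of cholesterol synthesis, was 7.33 in the EOM_fiber array of rat 15, the lowest of its group, and this is also the array highest in Adipoq. G0s2 was 10.73 in the TA_fiber array of rat 25, low against 12.06 or more. Acsl3 was 9.80 in the EOM_synapse array of rat 27, high against at most 9.52.

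For 2 genes the junction difference itself differed between the muscles by the limma interaction term. It was larger in EOM by 1.94 ± 0.39 for Elovl2 (adjusted p = 0.0314, in 4 of 4 rats) and by 1.60 ± 0.31 for Acsl3 (adjusted p = 0.0262). The Elovl2 call was lost on leaving out any 1 of 13 of the 16 arrays, that is all but the EOM_fiber arrays of rats 15 and 27 and the TA_fiber array of rat 27. It was also lost without each of the 4 rats, with median centring, with a constant of 1, with no filter and without the 2 arrays highest in Adipoq. The Acsl3 call was lost on leaving out any 1 of 8 arrays: EOM_fiber of rat 25, TA_fiber of rats 25 and 27, EOM_synapse of rats 15, 27 and 29, and TA_synapse of rats 27 and 29. It was also lost without each of the 4 rats, with median centring and without the 2 arrays highest in Adipoq.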

How the results depend on the processing

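Besides the 11 other settings, each of the 16 arrays and each of the 4 rats was left out in turn. The EOM minus TA difference of Scd stayed between 4.41 and 5.36 in fibre and between 3.98 and 4.94 at the junction on leaving out arrays or rats, and only the added constant moved it further, to 6.24 and 5.99 with 1 and to 3.49 and 3.07 with 64. Dim values, below or near the array median, limit Adipoq, Plin1 and the TA levels of Scd. Values as deposited move the median of all genes in fibre to 0.11.

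Counts of genes past the threshold depended on the fit. Fitting only the arrays of a contrast gave 582 in fibre (against 1620) and 606 between TA junction and fibre (against 1066). Median centring gave 1139 between junctions (against 1712), 689 between EOM junction and fibre (against 1055) and 56 for the difference between the muscles (against 96), where a constant of 1 gave 46 and of 64 gave 218. Leaving out the 2 arrays highest in Adipoq, chosen after seeing the data, gave 1032 in fibre. Over the arrays and rats left out in turn the counts ran from 924 to 1710 in fibre, 903 to 1932 between junctions, 475 to 1121 in EOM, 586 to 1202 in TA and 25 to 99 for the difference between the muscles. Without the rat as a replicate block they were 1383, 1474, 831, 903 and 73, and among the 7 genes only the TA call of Fasn was lost, at 0.80.

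The Fasn difference at EOM junctions was 0.95 with only the arrays of the contrast and 0.36 with the mean of its probe sets, both short of the threshold, and ran from 0.79 to 1.20 with arrays or rats left out. In TA it was 0.80 without the filter or with only the arrays of the contrast, 0.86 with median centring, 0.80 (0.797) with the mean of its probe sets and 0.75 without the 2 arrays highest in Adipoq, none past the threshold, and 0.70 to 0.96 with arrays or rats left out. Between the muscles at the junction the mean of its probe sets gave 0.0013. Fabp4 in TA passed with only the arrays of the contrast (-1.17), with median centring (-1.17) and with a constant of 64 (-0.97); with arrays or rats left out it ran from -1.50 to -0.85, and in EOM from -1.28 to -0.51.

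Differences near 0 changed sign. Leaving out arrays or rats moved EOM_fiber minus TA_fiber from -0.37 to 0.45 for Adipoq and from -0.34 to 0.73 for Fabp4. For Cfd, EOM_synapse minus TA_synapse then ran from -0.053 to 0.88. With arrays or rats left out, Scd ran from -0.49 to 0.22 in EOM and -0.22 to 0.75 in TA, Acly from -0.065 to 0.37 and Cfd from -0.82 to 0.11 in TA, Adipoq from -0.39 to 0.28 between junctions, Pparg from -0.27 to 0.75, Lipe from -0.23 to 0.14 and Mlxipl from -0.25 to 0.59 in fibre, and Lipe from -0.29 to 0.037 between junctions. The difference between the muscles ran from -1.22 to 0.038 for Scd, -0.074 to 0.50 for Fasn, -0.068 to 0.37 for Acly, -0.61 to 0.41 for Adipoq, -0.23 to 0.66 for Fabp4 and -0.85 to 0.092 for Cfd. Without the 2 arrays highest in Adipoq it was -0.063 for Acly, 0.10 for Adipoq, -0.0099 for Fabp4 and 0.18 for Cfd, and in fibre Pparg was -0.0049, Lipe 0.26 and Mlxipl -0.36. Median centring gave 0.083 for Adipoq and, between junctions, 0.0046 for Lipe; the mean of probe sets gave -0.44 for Fasn and, in fibre, 0.019 for Lipe, which was 0.11 as deposited. The r of Scd with the fat cell mean in TA ran from -0.73 to -0.049 and kept its sign. In EOM it was -0.12, and 0.85 without the 2 arrays farthest from the median. The causes were not tested.

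Leaving out a rat ended the fibre calls of Me1 (rat 29), Elovl5 and Prkaa2 (rat 25 or 27), Insig1 (rat 15 or 25) and Nr1h3 (rat 15 or 29). All of these and the fibre call of G0s2 were also lost with only the arrays of the contrast. The Elovl5 call was also lost with median centring, and the Insig1 call without the 2 arrays highest in Adipoq. The fibre calls of Scd2, Cidea and Cebpb held in every alternative.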
